A study of Ulmus pumila with 3 samples.

Results

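The miR160 family of Siberian elm (Ulmus pumila) was followed in small RNA from roots of 30-day-old wild type seedlings. Its members are the names in the deposited miRNA tables with the family number miR160, miR160a to miR160h, which are 8 of 309 names in all. There were 3 libraries: an unsalted control, a mild and short treatment (50 mM NaCl, 6 h) and a strong and long one (200 mM NaCl, 24 h). With a single library for each, no difference was tested, and every interval below is a 95% interval for counting error within the libraries. Because dose and time changed at once, their effects cannot be told apart. The description of the control gives no sampling time, so that may differ from the salt libraries as well. In whole roots, fewer cells of a type and less RNA per cell cannot be told apart either.

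MicroRNAs are short RNAs that guide an Argonaute protein to matching transcripts, and in plants the pairing usually runs along nearly the whole miRNA and leads to cleavage. miR160 is a family conserved among land plants. In Arabidopsis it targets ARF10, ARF16 and ARF17, auxin response factors that act mainly as repressors of auxin-responsive genes, and it takes part in root cap formation and root branching. The tables list miRNAs and no messenger RNA, so neither the elm ARF transcripts nor the tissue label could be checked here.

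The 8 sequences are shown because the names of the family differ by 1 base, by their ends or by strand. Each is written 5′ to 3′ as the authors listed it, with the seed (bases 2 to 8) in capitals.
miR160a: uGGCAUACagggagccaggca
miR160b: gCCUGGCUcccuguaugccau
miR160c: uGCCUGGCucccuguaugcc
miR160d: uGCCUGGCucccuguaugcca
miR160e: uGCCUGGCucccuguaugccg
miR160f: uGCCUGGCucccugaaugcca
miR160g: uGCCUGGCucccugcaugcca
miR160h: cGCCUGGCucccuguaugcca

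The seed GCCUGGC was common to 6 names, miR160c to miR160h, and no name outside the family carried it. miR160d, the most counted name over the 3 libraries, served as the sequence the others were set against. Positions are counted from 1 at its 5′ end, with its base given first. miR160e differed from it by A21G at the 3′ end, miR160f by U15A, miR160g by U15C and miR160h by U1C, so the substitutions lay outside the seed. miR160c was miR160d without its last base. miR160b started at position 2 of miR160d, shared 20 nt with it and so had a shifted seed, CCUGGCU. miR160a was the exact reverse complement of miR160d over 21 nt, the sole pair of exact reverse complements among the 309 names. Of the names, 7 were 21 nt long and 1 was 20 nt, 6 began with U, the base that AGO1 of Arabidopsis prefers, and the G+C content ran from 61.9% to 66.7%.

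The counts did not separate all of these sequences. miR160a, miR160b and miR160c each had 755 counts in control roots, 747 after 50 mM and 316 after 200 mM. Their counts were identical in every library although miR160a is on the other strand, so these names were counted once, which left 6 distinct patterns. miR160d had nearly the same counts, 748 in control roots, 754 after 50 mM and 319 after 200 mM. Its level could not be told from that of the first 3 names in any library, at 99.1% to 101% of it. Reads of 1 sequence may stand under all 4 names; no source used here gives the way reads were assigned.

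The libraries held 509280 (control), 449522 (50 mM) and 545587 (200 mM) counts over all names, from 293, 283 and 281 listed names in that order. Levels are given as reads per 1000000 of these counts (RPM). All 8 miR160 names were listed in the control library and at 200 mM, and 6 at 50 mM.

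The level of miR160d was 1469 RPM in control roots (interval 1365 to 1578), 1677 RPM after 50 mM (1560 to 1801) and 585 RPM after 200 mM (522 to 653). The library from 200 mM for 24 h was the low one, and its interval lay far below those of the other 2, while the intervals of the control and 50 mM libraries overlapped. Among all listed names miR160d ranked 44 in control roots, 39 after 50 mM and 74 after 200 mM. miR160e, the form with a 3′ terminal G, had 289 counts or 567 RPM in control roots (504 to 637), 298 or 663 RPM after 50 mM (590 to 743) and 143 or 262 RPM after 200 mM (221 to 309). The same library was low, and the other 2 again overlapped.

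miR160f, the U15A form, had 34 counts or 66.8 RPM in control roots (46.2 to 93.3), 28 or 62.3 RPM after 50 mM (41.4 to 90.0) and 31 or 56.8 RPM after 200 mM (38.6 to 80.7). Its levels in the 3 libraries could not be told apart at this depth. miR160g had 3 counts in the control library and 1 at 200 mM, and miR160h had 2 and 4. Both were unlisted at 50 mM and too thinly counted for a comparison. The order of levels was the same in all 3 libraries for the well counted names, with miR160a to miR160d on top and not separable, then miR160e, then miR160f.

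**Figure D1:**
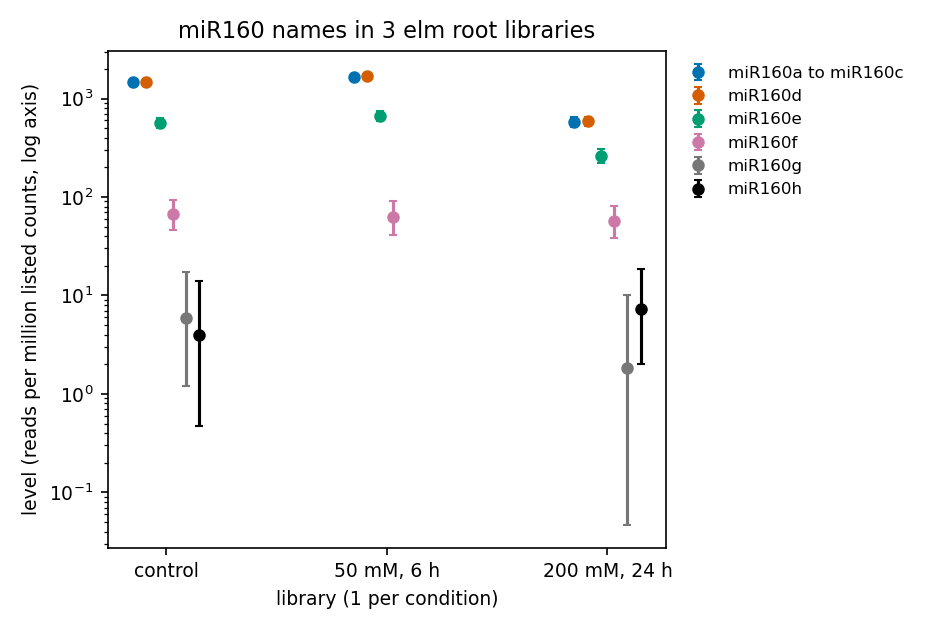
Levels of the 6 distinct miR160 patterns in RPM (log axis) in the control, 50 mM 6 h and 200 mM 24 h libraries, 1 library each, with exact Poisson 95% intervals. miR160a to miR160d and miR160e are lowest at 200 mM (585 RPM for miR160d), miR160f is nearly level at 56.8 to 66.8 RPM, and miR160g and miR160h are unlisted at 50 mM.

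After 24 h at 200 mM NaCl the main miR160 names stood at less than 0.5 of their level in the control library. The ratio was 0.398 for miR160d (0.348 to 0.454), which is 2.51-fold lower, and 0.391 for miR160a to miR160c (0.342 to 0.446). miR160e stood at 0.462 of its control level (0.375 to 0.566). miR160f had 0.851, and its interval (0.506 to 1.43) took in 1. Summed over the 6 distinct patterns, which may hold the reads of miR160d more than once, the family had 814 counts against 1831, or 1492 RPM against 3595, a ratio of 0.415 (0.363 to 0.474, with the width of the interval of miR160d).

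A name was called when it was in both libraries, had at least 20 counts in 1 of them, a ratio of at least 2 in either direction and an interval that excluded 1. By this rule 5 of the 6 miR160 names compared were lower at 200 mM than in the control library, while of all 168 names compared 16.7% were lower and 3.57% higher. Counted as distinct patterns, 3 of 4 were lower, and with miR160a to miR160d joined as 1, 2 of 3, beside 14.4% of all names lower in either count. Among the 104 names with at least 100 counts, 7.69% were lower, which was 8 names. Of these 8, 5 were miR160a to miR160e, of which the first 4 may hold the same reads, and the others were miR171e, miR171f and miR8175. Of the same 104 names 4 were higher; with TMM factors 6 were higher and 5 lower (3 of miR160, miR171e and miR171f), and with median-of-ratios factors 6 were higher and 0 lower. The median log2 ratio of the 4 miR160 patterns compared was −1.22. Over all names it was −0.40, and −0.33 with names of identical counts counted once.

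These calls depended on how the libraries were scaled. Over the 3 comparisons TMM factors moved the median of all names up by 0.06, 0.34 and 0.28 on the log2 scale (50 mM over control, 200 mM over control, 200 mM over 50 mM), and median-of-ratios factors by 0.06, 0.36 and 0.30. Relative to the median of all names, miR160d was at −0.92, miR160a to miR160c at −0.95, miR160e at −0.71 and miR160f at 0.17 on the log2 scale at 200 mM. With TMM factors miR160a to miR160c alone stayed past the rule, 2.03-fold lower, with miR160d 1.99-fold and miR160e 1.71-fold lower. With median-of-ratios factors no miR160 name was past it, with miR160a to miR160c 1.99-fold and miR160d 1.95-fold lower. The intervals of these 5 names excluded 1 under all 5 scalings, whereas the log2 ratio of miR160f, −0.23, changed sign to 0.10 and 0.13 with those factors. Over all names 6 were higher and 28 lower; TMM factors gave 10 and 20 (11.9% lower), and median-of-ratios factors 10 and 15 (8.93% lower).

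**Figure D2:**
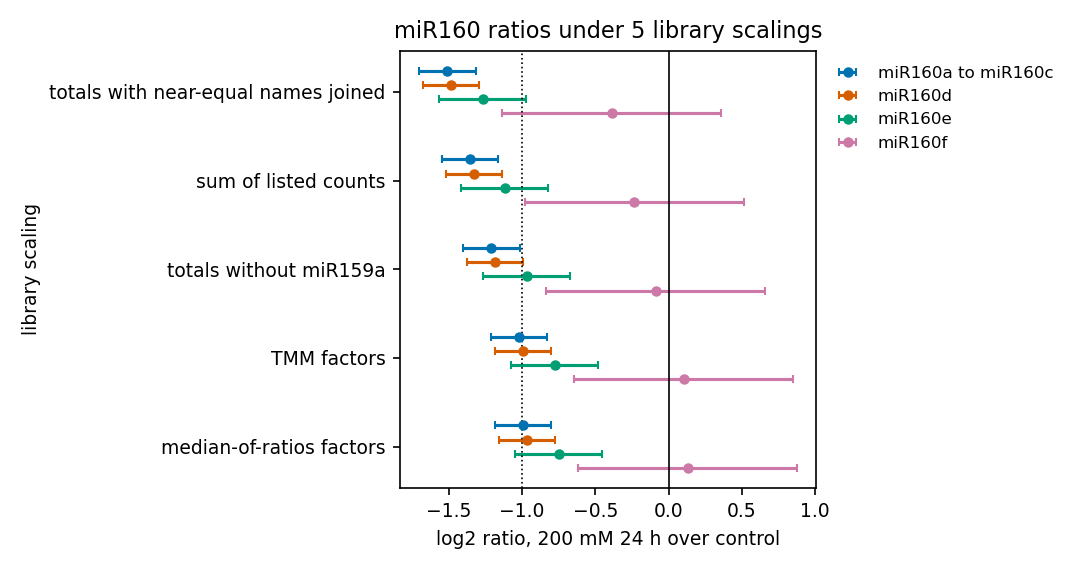
Log2 ratio of 4 miR160 patterns at 200 mM for 24 h over control under 5 library scalings, with exact conditional 95% intervals; the dotted line marks a ratio of 0.5. Points for miR160a to miR160e keep to the left of 0 and cross the dotted line between scalings, while the intervals of miR160f include 0 in each.

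After 6 h at 50 mM NaCl no miR160 name was past the rule, of 6 compared, beside 1.85% higher and 3.09% lower of all 162 names compared. The ratio to control was 1.14 for miR160d (1.03 to 1.27), 1.12 for miR160a to miR160c (1.01 to 1.24), 1.17 for miR160e (0.990 to 1.38) and 0.933 for miR160f (0.545 to 1.59). The family sum had 1827 counts against 1831, or 4064 RPM against 3595, a ratio of 1.13 (1.02 to 1.25). Relative to the median of all names, −0.08 on the log2 scale, miR160d stood 0.27 higher. When overlapping names of near-equal counts were joined in the totals, the log2 ratio of miR160d was 0.13 and its interval included 0 (−0.015 to 0.28). With TMM factors it was 0.25 (0.10 to 0.40), and that of miR160e was 0.28 (0.044 to 0.52). No miR160 name was past the rule with either scaling.

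Between the salt libraries the same 5 names were called. The ratio of 200 mM to 50 mM was 0.349 for miR160d (0.305 to 0.398), or 2.87-fold lower, and 0.395 for miR160e (0.322 to 0.484), or 2.53-fold lower. miR160f had a ratio of 0.912 (0.529 to 1.58). The rule took 5 of the 6 miR160 names as lower, beside 18.9% of all 159 names lower and 6.29% higher, and all 5 stayed past it under both of those other scalings. Counted as distinct patterns, 3 of 4 were lower, beside 17.2% of all names so counted. Over all names 10 were higher and 30 lower; TMM factors gave 13 and 20 (12.6% lower), and median-of-ratios factors 13 and 19 (11.9% lower). The 2 comparisons with control share 1 control library, and both comparisons with the 200 mM library share that one. Each of the libraries stands alone, so the level of miR160 in a second set of roots is not known.

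**Figure D3:**
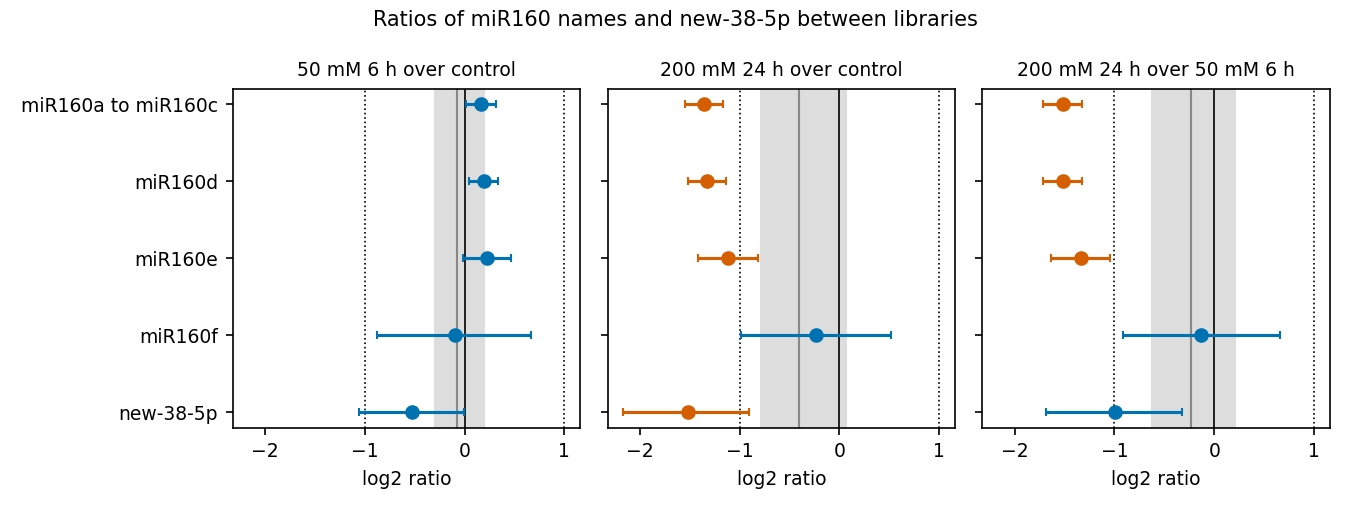
Log2 ratios of miR160 patterns and of the overlapping name new-38-5p in 3 comparisons, with exact conditional 95% intervals; orange points are past the rule of size. The grey line and band are the median and interquartile range of all compared names, and dotted lines mark 2-fold differences; miR160a to miR160e lie left of the band at 200 mM in both comparisons, and miR160f lies within it.

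A ratio between names of the same library does not depend on scaling, so the make-up of the family was compared directly. miR160e was at 38.6% of the count of miR160d in control roots, 39.5% after 50 mM and 44.8% after 200 mM. At 200 mM over control this is a ratio of ratios of 1.16, with an interval that includes 1 (0.905 to 1.48), so miR160e and miR160d were not separable in their difference. miR160f was at 4.55% of miR160d in control roots (3.12 to 6.41), 3.71% after 50 mM (2.45 to 5.41) and 9.72% after 200 mM (6.49 to 14.1). The ratio of ratios of miR160f to miR160d was 2.14 at 200 mM over control (1.25 to 3.65), 2.62 at 200 mM over 50 mM (1.49 to 4.61) and 0.817 at 50 mM over control (0.472 to 1.40). Set against miR160e in place of miR160d, miR160f had a ratio of ratios of 1.84 at 200 mM over control (1.05 to 3.22). The U15A form took a larger part of the family in the 200 mM library than in the other 2, on 31 counts there. As a part of the summed counts of miR160d to miR160h it was 6.22% at 200 mM (exact binomial interval 4.27 to 8.72), against 3.16% in the control library (2.20 to 4.39).

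One name outside the family shared sequence with it. It is the 5′ arm of a hairpin that the authors named as a new miRNA with the number 38, written here as new-38-5p, and it is shown because it is a shifted copy of the miR160 sequence.
new-38-5p: cCUGGCUCccuguaugccauc
It started at position 3 of miR160d, with 19 nt identical to it and 20 nt identical to miR160b, and its seed was CUGGCUC. Its counts were 83 in control roots, 51 after 50 mM and 31 after 200 mM, or 163, 113 and 56.8 RPM in that order, so the level was lowest at 200 mM. The 200 mM library stood 2.87-fold below control (1.88 to 4.48), past the rule also with TMM and median-of-ratios factors, at 2.27-fold and 2.23-fold. At 50 mM the ratio to control was 0.696 (0.481 to 0.998), with an upper end close to 1. Its log2 ratio of −0.52 was −0.46 with TMM or median-of-ratios factors and −0.48 with totals without miR159a. With near-equal names joined in the totals it was −0.58. All of these but the last move the upper end past 1. Set against miR160d, the ratio of ratios was 0.610 at 50 mM over control (0.415 to 0.888) and 0.876 at 200 mM over control (0.549 to 1.37). The ratio of ratios at 50 mM over control does not depend on scaling, and its interval excluded 1. It rests on 51 and 83 counts of new-38-5p, and the interval is approximate if new-38-5p and miR160d share reads. The 3′ arm of that hairpin, new-38-3p, had 3 counts in control roots, 1 after 200 mM and no entry after 50 mM.

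**Figure D4:**
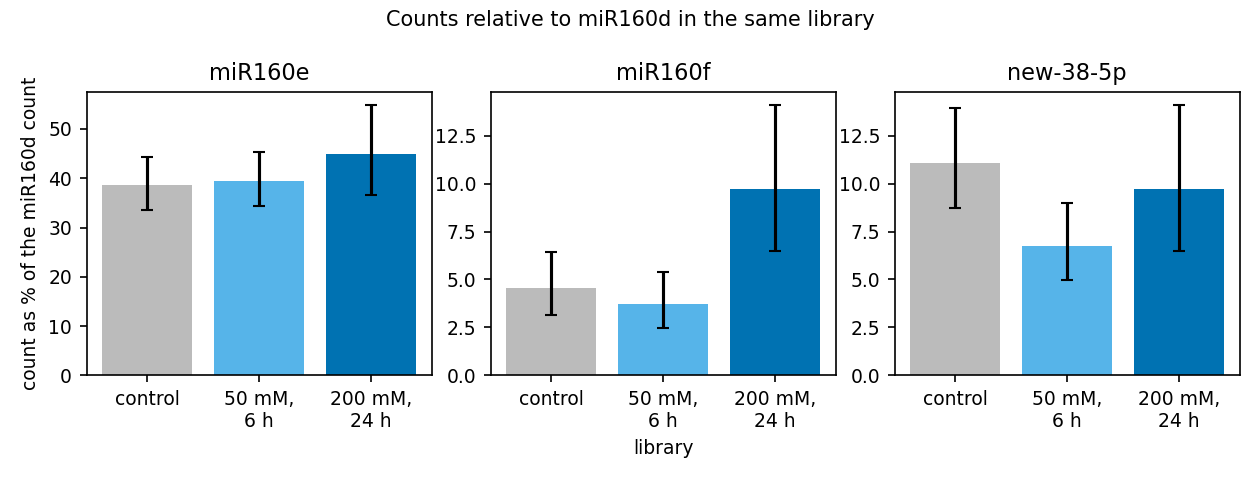
Counts of miR160e, miR160f and new-38-5p as a percentage of the miR160d count in the same library, control, 50 mM 6 h and 200 mM 24 h, with exact binomial 95% intervals (each axis starts at 0 and has its own range). miR160e stays near 39% to 45%, miR160f is highest at 200 mM (9.72%), and new-38-5p is lowest at 50 mM (6.76%).

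Other families that act in auxin signalling or downstream of it were listed under 27 names, and the number miR390, whose Arabidopsis member triggers trans-acting RNAs against further ARF genes, was under no listed name. At 200 mM over control 7 of the 21 names compared were lower and 0 higher, beside 16.7% lower and 3.57% higher of all names, with a median log2 ratio of −0.57 against −0.40 for all names. The 7 names all belong to miR164, which targets NAC1 and related NAC factors in Arabidopsis root branching. They hold 4 distinct patterns, in 2 groups of near-equal counts. The summed distinct patterns of miR164 were at 112 RPM at 200 mM against 314 RPM in the control library, a ratio of 0.356 (0.210 to 0.594). The intervals of these family sums take the relative width of that of the most counted name, here miR164a. The log2 ratio of −1.49 was −1.15 with TMM and −1.13 with median-of-ratios factors, and 7 names stayed past the rule with either. miR164a was compared but not called, with a ratio of 0.630 (0.372 to 1.05). miR167, which targets the activating factors ARF6 and ARF8 in Arabidopsis, was at 14619 RPM against 17749 RPM, a ratio of 0.824 (0.767 to 0.885). Its log2 ratio of −0.28 changed sign under those scalings, to 0.06 with TMM and 0.08 with median-of-ratios factors. miR393, which targets the TIR1 and AFB auxin receptors, was at 214 RPM against 236 RPM, a ratio of 0.910 (0.629 to 1.32), and its log2 ratio of −0.14 changed sign to 0.20 and 0.23 with the same factors.

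At 50 mM over control none of the 21 names of these families was past the rule, beside 1.85% higher and 3.09% lower of all names. Their median log2 ratio was −0.36 against −0.08 for all names. miR393 was at 405 RPM against 236 RPM, a ratio of 1.72 (1.23 to 2.42), on the same side of 1 as miR160. miR167 had 0.831 (0.774 to 0.891) and miR164 0.850 (0.544 to 1.33). At 200 mM over 50 mM, 6 of the 16 names compared were lower, 3 of miR164 and 3 of miR393, beside 18.9% lower and 6.29% higher of all names. By TMM scaling 0 were lower, beside 12.6% of all names, and by median-of-ratios scaling 0, beside 11.9%. The 3 miR393 names have identical counts and are 1 pattern. Summed over distinct patterns, miR160 was the 9th most counted of 46 numbered families in the control library and at 50 mM and the 12th at 200 mM. Such sums may hold the same reads more than once, in miR160 and in other families. With near-equal names joined, miR160 had 1081 counts in the control library in place of 1831, and ranks were not computed on joined counts. Of the 23 families with at least 100 counts in a library of the comparison, miR160 had the second lowest ratio of 200 mM to control, after miR164.

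**Figure D5:**
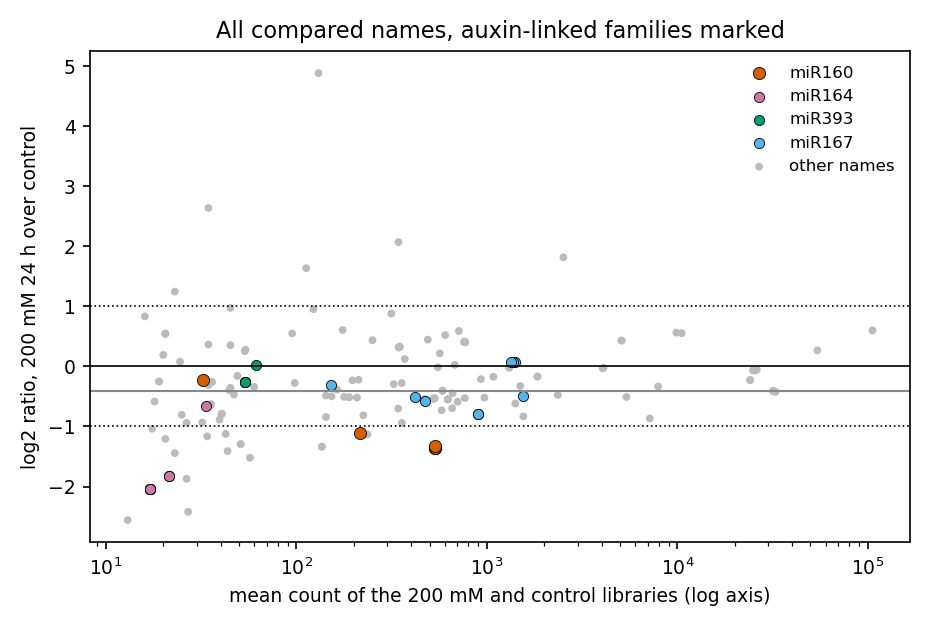
Log2 ratio at 200 mM 24 h over control against the mean count of both libraries (log axis) for the 168 compared names; the grey line is the median of all names (−0.40) and dotted lines mark 2-fold differences. miR160a to miR160e lie below the lower dotted line at mean counts where few other names do, and the miR164 names called lower have low counts.

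The names whose pattern over the 3 libraries was most like that of miR160d were found by the distance between their log2 ratios to control, among 91 patterns outside the family with at least 100 counts in 1 library. They were miR171e, new-7-3p, miR399a, new-12-5p and new-5-3p, at distances of 0.41, 0.51, 0.55, 0.63 and 0.63 on the log2 scale. By the same measure miR160a to miR160c, which may hold the same reads as miR160d, lay at 0.038 and miR160e at 0.22. miR160f had fewer than 100 counts in every library and was left out. Its log2 ratios to control were −0.10 at 50 mM and −0.23 at 200 mM, against 0.19 and −1.33 for miR160d. miR171e, of a family that targets GRAS factors, had 191 counts in control roots, 145 after 50 mM and 81 after 200 mM, as did miR171f. It was lowest at 200 mM like miR160d, but below control at 50 mM, with a log2 ratio of −0.22. new-7-3p had 459, 580 and 256 counts in that order of libraries, and miR399a, of a family that targets the PHO2 ubiquitin conjugase, had 179, 216 and 107, so both were highest at 50 mM and lowest at 200 mM. None of the 5 shared sequence with a miR160 name.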

How the data were processed

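Small RNA was sequenced from roots of wild type elm seedlings, 1 library per condition. Per the labels' protocols, Trizol was used for extraction and an NEBNext kit for the libraries. Per the file headers, the deposited tables give a whole read count for each miRNA name. The TPM values deposited by the authors were checked to be the count per 1000000 of the counts in the same table, with no length correction, and are called RPM here. Trimming, alignment and the use of strand are not stated in the labels or headers. Names with at least 1 read are listed. The totals, 449522 to 545587 counts, are sums over names, not sequencing depth, and count some reads under several names.

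Ratios of RPM of single names have exact conditional binomial (Clopper-Pearson) intervals. Levels have exact Poisson intervals, and ratios of ratios exact conditional odds ratio intervals (SciPy 1.17.1). For the ratio of a family sum, the interval takes the relative width of that of its most counted name. All these intervals cover counting error only, since amplified reads are not independent molecules. Names that share reads make those of sums and of ratios of ratios approximate. Names were joined where they overlapped by at least 16 nt in either orientation, with up to 2 mismatches, and had identical counts, or, in an alternative, counts within 5% or 3 reads in every library. Alternatives scaled the libraries by TMM factors (edgeR 4.0.16) or median-of-ratios size factors (DESeq2 1.42.0), by totals without miR159a or with names joined, and changed the count minimum, the fold and the family sum. The calling rule was checked on simulated Poisson counts.

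The members, the auxin-linked list and the tests were chosen with earlier results of these data known. The named miRNAs are the miR160 names, names sharing sequence with them, the auxin-linked families and the 5 nearest patterns. miR171e, miR171f and miR8175 among the well counted lower names, and new-38-3p, were named after their values were seen.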

Additional observations from a re-analysis of the deposited data

Results flagged for a closer look

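The ratios to control of miR160a to miR160e, and of the family sum, lay above 1 at 50 mM and below 1 at 200 mM. Those of miR160f were below 1 in both, but their intervals include 1. At 200 mM the log2 ratio of miR160f changed sign with TMM and median-of-ratios factors. The difference between the libraries was not tested, and both ratios share the control library. The family ratio was 1.13 at 50 mM for 6 h over control and 0.415 at 200 mM for 24 h over control. For miR160a to miR160c the ratios were 1.12 and 0.391, for miR160d 1.14 and 0.398, and for miR160e 1.17 and 0.462, in the same order. The interval of miR160e at 50 mM includes 1, and those of miR160a to miR160d do so when near-equal names are joined in the totals. That of miR160e excludes 1 with TMM factors, median-of-ratios factors or totals without miR159a.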

How the results depend on the processing

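The family log2 ratio at 200 mM over control, −1.27, was −0.93 by TMM and −0.91 by median-of-ratios factors, and at 200 mM over 50 mM, −1.45, it was −1.17 and −1.14. At 200 mM over control 5 names were past the rule of size, beside 16.7% of all names lower. By TMM factors there were 3 (11.9% of all names lower) and by median-of-ratios factors 0 (8.93%). With names of identical counts counted once there were 3 (14.4%). At 200 mM over 50 mM 5 were past the rule (18.9% of all names lower), or 3 with those names counted once (17.2% in that count). The cause was not tested, except that counting once removes names by construction. The other 45 values of the family sum, the counts of names and the within-family ratios stayed within the interval of the reported value or, for counts, within 1.5 times. Of the log2 ratios of single names, 11 at 200 mM, all of miR160a to miR160e, left their interval with these scalings (5 by TMM, 6 by median-of-ratios factors) and lay between −1.24 and −0.75, and 45 stayed within it. No alternative turned a miR160 ratio whose interval excluded 1, while that of miR167 at 200 mM over control turned. The alternative without 3′ arm names was not run, since no miR160 name carries an arm. Scaling of single names was added after the data were seen. Low counts limit miR160f, miR160g and miR160h. No paired analysis was possible because each condition has 1 library, and for the same reason no replicate could be left out.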
